A study of Mus musculus with 2 samples.

Results

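The WNT family is described here across both arrays of the study by the genes that send, receive and block the signal. Its members were all non-control probes whose gene name was *Wnt*, *Fzd*, *Sfrp* or *Dkk* with a number and an optional letter, together with *Frzb*, *Wif1*, *Lrp5*, *Lrp6* and *Axin2*. This gave 42 genes with 59 probes, of 37074 gene names and 56605 probes on the array. They comprise 19 WNT ligands, 10 Frizzled receptors, 2 LRP co-receptors, 10 secreted antagonists and *Axin2*.

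The samples were MCMs, mouse cardiomyocytes bought as cultured cells and passaged before use. One culture received a negative control siRNA (siRNA-NC), and the other received an siRNA against *Ppp2r5d* (siRNA-*Ppp2r5d*), which encodes a regulatory B56 subunit of protein phosphatase 2A. Both cultures were given glucose-free medium at 48 h after transfection, and RNA was taken at 64 h. The labels name no further treatment, genotype or strain. Each condition had 1 culture on 1 array, so the spread between cultures is unknown for every value below and no p-value is given.

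Unless another unit is named, a value is a log2 fold change of siRNA-*Ppp2r5d* over siRNA-NC after each array was scaled by its 75th percentile, so that a negative value means lower with siRNA-*Ppp2r5d*. Intensities are the background-corrected signals of single probes, not scaled between arrays. For siRNA-NC this percentile was an intensity of 592, and for siRNA-*Ppp2r5d* it was 518. An error given after ± comes from the scanner software's own error model. For bright probes it follows from a fixed relative error of 0.1 per array, which gives 0.20, and is not a spread measured between spots. It does not cover the difference between cultures.

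WNT proteins are secreted, lipid-modified ligands that bind Frizzled receptors. Together with the LRP5 or LRP6 co-receptor, they keep beta-catenin from being degraded, and beta-catenin then acts with TCF and LEF factors in the nucleus. Other WNT ligands act without beta-catenin, through cell polarity and calcium signals. SFRP proteins, FRZB and WIF1 bind WNT ligands, DKK proteins act mainly on LRP5 and LRP6, and *Axin2* is a feedback gene that is widely read as a target of beta-catenin. In the heart, WNT signals are known from the specification of cardiac cells and from injury and fibrosis. B56 subunits of protein phosphatase 2A can bind the complex that degrades beta-catenin.

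A gene was counted as detected where 1 or both arrays were well above background, which held for 21638 genes, and as measured where both were, which held for 20311. Among those detected, 308 were at least 2-fold lower with siRNA-*Ppp2r5d* and 219 at least 2-fold higher. Per array, 35544 (siRNA-NC) and 35174 (siRNA-*Ppp2r5d*) of 59305 non-control spots passed this background criterion. *Ppp2r5d* itself had an intensity of 4701 with siRNA-NC and 676 with siRNA-*Ppp2r5d*, a log2 fold change of -2.61 ± 0.20. The label of the cells was set against cell type markers. Of 21 cardiomyocyte markers, 12 were measured on both arrays, among them *Tnnt2*, *Actc1* and *Nkx2-5*, and 6 were well above background on neither, namely *Actn2*, *Ckm*, *Ckmt2*, *Myl2*, *Myl7* and *Pln*. The sarcomere markers *Tnni3*, *Myh7*, *Myl3* and *Ttn* were also measured on both arrays, and *Myh6*, *Mybpc3* and *Ryr2* were well above background on 1 array. Likewise, 9 of 12 fibroblast markers and 8 of 9 smooth muscle and pericyte markers were measured on both arrays. The fibroblast markers *Fap*, *Tcf21* and *Thy1* and the pericyte marker *Rgs5* were well above background on neither. The summed scaled signal was 19.5 with siRNA-NC and 19.7 with siRNA-*Ppp2r5d* for the cardiomyocyte list, 918 and 987 for the fibroblast list, and 297 and 318 for the smooth muscle list. The cardiomyocyte sum was carried by *Actc1*, with an intensity of 6443 and 5268 and a value of -0.099. Of a summed fibroblast intensity of 543542 with siRNA-NC, before scaling, *S100a4* held 235195. Of the 12 cardiomyocyte markers measured, 9 were above 0, with a median of 0.45, and 5 of the 15 detected were at least 1.5-fold higher, beside 3.79% of all genes. Of these 5, *Nppa*, *Nppb*, *Csrp3* and *Myl3* were dim with siRNA-NC, at intensities of 16.6, 17.1, 37.7 and 40.4. *Cox6a2* was at least 1.5-fold lower, from 1680 to 899, a value of -0.71, beside 5.38% of all genes. The part of the shift in cardiomyocyte markers in the values below was not tested. Of 9 endothelial markers, 1 was well above background on both arrays, as were 6 of 8 macrophage and leukocyte markers and 5 of 7 Schwann cell and neuron markers. In bulk RNA, fewer cells of a type and less RNA per cell cannot be told apart.

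The 4 genes that the results turn on are the ligands *Wnt10b*, *Wnt4* and *Wnt6*, the lowest members, and the feedback gene *Axin2*. The 250 bases before their start sites are shown so that their composition can be set side by side. They come from RefSeq, build GRCm38.p6, at chr15:98778151-98778400 on the minus strand for *Wnt10b* and, on the plus strand, at chr4:137277385-137277634 for *Wnt4*, chr1:74771642-74771891 for *Wnt6* and chr11:108920099-108920348 for *Axin2*. Each is written 5′ to 3′ in the direction of its gene. Capitals mark the letters GGGCGG, the core of a GC box, on either strand.
Wnt10b: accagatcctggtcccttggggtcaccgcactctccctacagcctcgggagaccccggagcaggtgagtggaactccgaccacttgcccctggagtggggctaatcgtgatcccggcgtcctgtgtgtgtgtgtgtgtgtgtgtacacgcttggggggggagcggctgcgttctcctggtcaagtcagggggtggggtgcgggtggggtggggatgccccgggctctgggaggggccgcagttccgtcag
Wnt4: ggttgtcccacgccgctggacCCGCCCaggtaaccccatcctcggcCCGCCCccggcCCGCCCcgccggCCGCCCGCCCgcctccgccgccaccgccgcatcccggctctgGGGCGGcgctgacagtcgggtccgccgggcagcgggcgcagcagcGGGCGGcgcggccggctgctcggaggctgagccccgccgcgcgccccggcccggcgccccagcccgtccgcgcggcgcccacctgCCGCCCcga
Wnt6: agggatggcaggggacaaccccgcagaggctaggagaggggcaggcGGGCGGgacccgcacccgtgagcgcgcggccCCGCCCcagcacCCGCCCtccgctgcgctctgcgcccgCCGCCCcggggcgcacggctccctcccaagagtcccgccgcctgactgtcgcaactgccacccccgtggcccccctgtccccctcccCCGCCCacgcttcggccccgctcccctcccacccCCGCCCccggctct
Axin2: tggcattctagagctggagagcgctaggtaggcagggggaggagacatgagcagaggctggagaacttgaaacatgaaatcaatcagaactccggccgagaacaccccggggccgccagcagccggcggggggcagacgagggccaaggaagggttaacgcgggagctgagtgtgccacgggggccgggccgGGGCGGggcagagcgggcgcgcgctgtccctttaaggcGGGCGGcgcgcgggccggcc

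The upstream sequences of *Wnt4* and *Wnt6* were dense in these letters, whereas that of *Wnt10b* held none. Counting overlaps, *Wnt4* had 8 matches, *Wnt6* had 6, *Axin2* had 2 and *Wnt10b* had 0. The G and C content was 85.2% for *Wnt4*, 79.6% for *Wnt6*, 69.2% for *Axin2* and 66.8% for *Wnt10b*, beside a median of 52.4% over all 32851 mouse promoters in the table. CpG pairs numbered 44, 28, 24 and 14 in the same order. The letters GGGCGG were present in 32.7% of all promoters and in 23 of the 31 promoters of the 28 members that had an entry. These shares were not adjusted for G and C content. The TCF/LEF core, searched as CTTTGAA or CTTTGAT on both strands, was present in 7.48% of all promoters and in none of the 4 shown. Among the members it was present upstream of *Dkk1*, *Wnt11* and *Wnt5b*. A CCAAT box was present in 33.8% of all promoters and the letters TATAAA in 12.4%, and neither was in the 4 shown. These matches describe the letters in a short window only.

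Members of the WNT family were mostly lower with siRNA-*Ppp2r5d*, several of them by less than the scanner error. The ligands held the lowest values. Of the 42 genes, 27 were detected, of which 26 were measured on both arrays and *Fzd3* gave a bound, and 15 were well above background on neither. The last group had 9 ligands (*Wnt2*, *Wnt2b*, *Wnt3*, *Wnt3a*, *Wnt7a*, *Wnt8a*, *Wnt8b*, *Wnt9b* and *Wnt16*), the receptor *Fzd10*, and the antagonists *Dkk1*, *Dkk4*, *Frzb*, *Sfrp1* and *Wif1*. Their probes lay between intensities of 3.00 and 10.9 with siRNA-NC, below the lowest signal well above background there, 14.9. No fold is given for them.

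Of the 27 members detected, 3 were at least 2-fold lower, which is 11.1%, beside 1.42% of all genes. None was at least 2-fold higher, beside 1.01% of all genes. At 1.5-fold, 6 members were lower, which is 22.2%, beside 5.38% of all genes, and 1 was higher, beside 3.79%. Dim genes passed 2-fold more often, 2.77% of them lower and 1.71% higher where the mean intensity was under 100 on both arrays. All 3 members past 2-fold had a mean intensity of 100 or more on at least 1 array, as did 22 members in all, and 0.845% of all such genes were at least 2-fold lower. The 5 dim members, *Fzd3*, *Fzd5*, *Wnt11*, *Wnt5b* and *Wnt7b*, were all within 2-fold. The family was chosen with *Wnt10b* known to be strongly lower, so the counts of lower members partly restate that choice.

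Among the 26 members measured on both arrays, 21 had a value below 0, a count that ran from 18 to 24 under other scalings and background correction, and the median was -0.28. Over all 20311 genes measured on both arrays, 46.0% had a value below 0 and the median was 0.025. The median was -0.52 for the 10 ligands measured and -0.16 for the 16 other members, and the difference between these medians was not tested. The ligand median was -0.36 with normexp, -0.73 with spike-in scaling and -0.064 without a filter on dim probes, where all 19 ligands enter. These counts describe 2 arrays, and the members are not replicates of a condition.

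**Figure D1:**
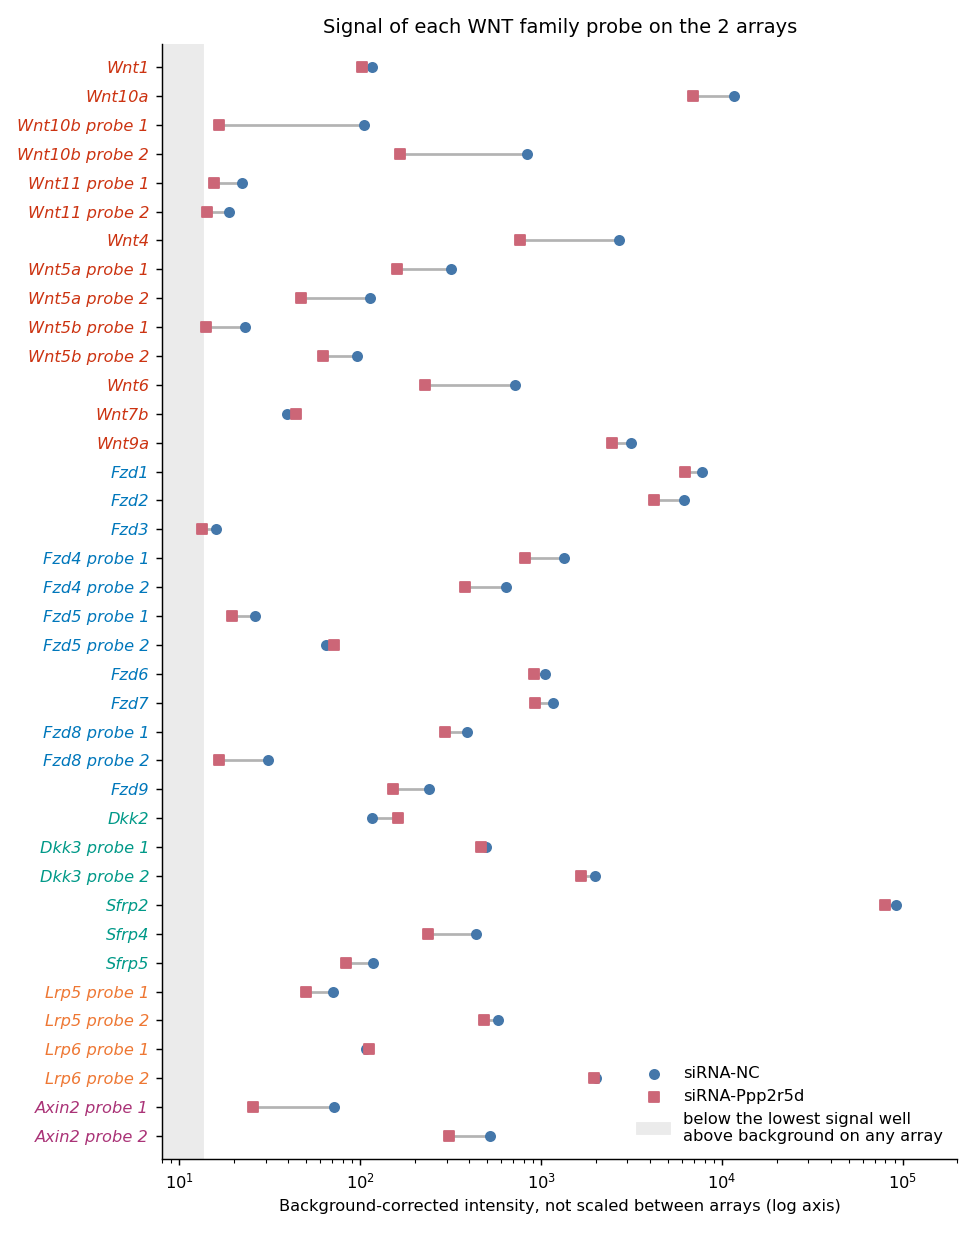
Background-corrected intensity (log axis, not scaled between arrays) of each WNT family probe of the detected genes that was itself well above background on 1 or both arrays, with circles for siRNA-NC, squares for siRNA-*Ppp2r5d* and names coloured by family. Both *Wnt10b* probes, *Wnt4* and *Wnt6* have the longest lines among the ligands, all running to lower signal with siRNA-*Ppp2r5d*; the grey band ends at 13.5, the lowest signal well above background on the siRNA-*Ppp2r5d* array.

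*Wnt10b*, a ligand that acts through beta-catenin and is known for favouring bone over fat formation, was the lowest member. Its probe at chr15:98602897-98602956 (build mm9, as are all probe positions below) had an intensity of 105 with siRNA-NC and 16.6 with siRNA-*Ppp2r5d*, a value of -2.47 ± 0.32. Its probe at chr15:98602209-98602268 had 832 and 167, a value of -2.13 ± 0.21. The probes thus gave the same direction and similar sizes at very different signals. The mean of -2.30, 4.92-fold lower, was the fifth lowest of all 20311 genes measured on both arrays. The first probe ended close to the lowest signal well above background on the siRNA-*Ppp2r5d* array, 13.5. With normexp background correction, which adds an offset of 50 and so compresses dim signals, *Wnt10b* was at -1.36.

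*Wnt4*, a ligand needed for kidney and female reproductive tract development, had 1 probe, at chr4:136855342-136855401. Its intensity was 2703 with siRNA-NC and 763 with siRNA-*Ppp2r5d*, a value of -1.63 ± 0.20, or 3.10-fold lower. *Wnt6*, a ligand of epithelia and of the early embryo, also had 1 probe, at chr1:74831461-74831520. Its intensity was 716 and 227, a value of -1.47 ± 0.20, or 2.76-fold lower. Both signals were far above background on both arrays. From the lowest value, *Wnt4* was at place 33 and *Wnt6* at place 46 of the 20311 genes. For the 3 ligands past 2-fold, the distance from 0 was many times the scanner error, which cannot stand in for the spread between cultures.

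The other ligands were within 2-fold. *Wnt5a*, the best known ligand that acts without beta-catenin, had intensities of 316 and 159 at one probe, a value of -0.80 ± 0.21. At a second probe it had 113 and 46.9, a value of -1.07 ± 0.22, and another probe was well above background on neither array. The mean of -0.94 thus came close to 2-fold, with the probes on either side of it. *Wnt10a*, the closest relative of *Wnt10b* and known for its role in teeth and skin, went from 11650 to 6882, a value of -0.57 ± 0.20. *Wnt5b*, the relative of *Wnt5a*, had a mean of -0.47 from 2 probes, both below 0. *Wnt11*, a ligand of heart and kidney development, had -0.27 from 2 probes with intensities of 22.2 and 18.8 with siRNA-NC, close to background.

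At the upper end of the ligands, *Wnt9a* was at -0.16, *Wnt1* at -0.0027 and *Wnt7b*, known from lung development, at 0.36. *Wnt7b* was the one ligand above 0, from 1 of its 2 probes, with an intensity of 39.3 with siRNA-NC and 44.1 with siRNA-*Ppp2r5d*. In all, 9 of the 10 measured ligands were below 0, and 7 of these were below 0 in all 10 alternative settings, whereas *Wnt1* was below 0 in 5 of them and *Wnt11* in 9. *Wnt7b* was below 0 in 1 setting. The settings reuse the same arrays and are not independent checks. Neighbouring ligand genes that were both measured differed in the size of their values. *Wnt6* and *Wnt10a*, whose probes lie 19.1 kb apart on chromosome 1, had -1.47 and -0.57, both below 0 in all 10 alternative settings. *Wnt10b* and *Wnt1*, whose probes lie 21.2 kb apart on chromosome 15, had -2.30 and -0.0027. The other close pairs, *Wnt3a* with *Wnt9a* and *Wnt9b* with *Wnt3*, had at most 1 measured gene each.

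**Figure D2:**
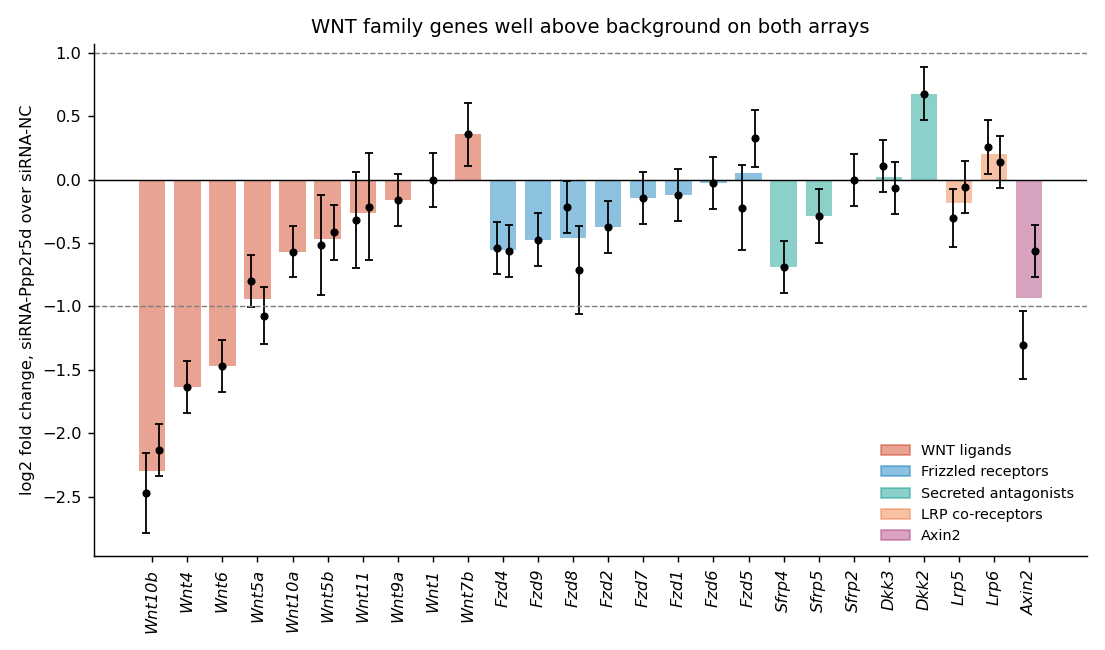
Log2 fold change of siRNA-*Ppp2r5d* over siRNA-NC for the 26 members well above background on both arrays, with bars for the gene, points for its probes and error bars for the scanner software's error of each probe; dashed lines mark 2-fold. *Wnt10b* (-2.30), *Wnt4* (-1.63) and *Wnt6* (-1.47) pass the lower line and no gene passes the upper one.

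Among marker lists, the summed scaled signal of the epithelial and mesothelial list went from 44.1 with siRNA-NC to 30.9 with siRNA-*Ppp2r5d*. Of its 9 markers, 3 were measured on both arrays, and 5 were well above background on neither, *Cdh1*, *Epcam*, *Krt19*, *Upk1b* and *Upk3b*. The sum was carried by *Msln*, with an intensity of 26017 and 15755 and a value of -0.53. The other measured markers went the other way, *Krt8* at 2.16 and *Wt1* at 0.21, and the median of the list was 0.21. The part of this list in the ligand values was not tested.

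None of the 9 Frizzled receptors detected was past 1.5-fold, beside 5.38% of all genes lower and 3.79% higher. For a family of this size, such a count is near that background. *Fzd4*, which also serves Norrin in the vessels of the retina, had the lowest value, -0.55, from 2 probes that went from 1346 to 812 and from 642 to 380. *Fzd9* was at -0.47 and *Fzd2* at -0.37, the latter from 6189 to 4184. *Fzd8* had a mean of -0.46 from probes at -0.21 and -0.71, the second of them dim. *Fzd7* was at -0.15, *Fzd1* at -0.12, from 7731 to 6212, and *Fzd6*, a receptor of planar polarity, at -0.024. Each of these last 3 values was within the scanner error of 0.20.

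The probes of *Fzd5* disagreed in sign. One went from 26.1 to 19.6, a value of -0.22 ± 0.33, and the other from 65.1 to 71.3, a value of 0.32 ± 0.22, for a mean of 0.051. *Fzd3* was well above background with siRNA-NC alone, at an intensity of 15.9, and its bound of -0.051 says little about its size. Of the 8 receptors measured on both arrays, 7 were below 0, of which *Fzd6* was above 0 under 1 alternative, and their median was -0.26. This median was -0.47 with spike-in scaling, -0.13 with normexp and -0.13 when dim probes were kept.

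The LRP co-receptors lay on both sides of 0. *Lrp5* had intensities of 70.7 and 50.1 at one probe, a value of -0.30 ± 0.23, and of 578 and 485 at the other, a value of -0.06 ± 0.20, for a mean of -0.18. *Lrp6* had 107 and 112 at one probe, a value of 0.26 ± 0.21, and 2021 and 1951 at the other, a value of 0.14 ± 0.20, for a mean of 0.20. The probes of each gene agreed in sign. Neither gene was past 1.5-fold, and *Lrp6* was below 0, at -0.01, under scaling to the spike-in probes.

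Secreted antagonists held both the one member past 1.5-fold upward and values near 0. *Dkk2*, a DKK protein that binds LRP5 and LRP6, went from an intensity of 116 to 162, a value of 0.68 ± 0.21, and was above 0 in all 10 alternative settings. *Sfrp4* went from 435 to 236, a value of -0.69 ± 0.20. *Sfrp5* was at -0.29, and *Sfrp2*, the antagonist with an intensity of 91425 with siRNA-NC and 79837 with siRNA-*Ppp2r5d*, was at -0.0038. *Dkk3*, a divergent DKK protein, had 2 measured probes of opposite sign, from 497 to 468 with a value of 0.10 ± 0.20 and from 1975 to 1653 with a value of -0.065 ± 0.20, and its mean was 0.020. Of the 5 antagonists measured, 3 were below 0 and 2 above, and their median was -0.0038.

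*Axin2* was lower at both of its probes, by different sizes. At chr11:108803927-108803986 the intensity went from 71.8 to 25.5, a value of -1.30 ± 0.27. At chr11:108811980-108812039 it went from 518 to 308, a value of -0.56 ± 0.20. The mean of -0.93, or 1.91-fold lower, was at place 275 of 20311 genes from the lowest. One probe was past 2-fold and the other was under 1.5-fold, so the call of *Axin2* depends on the probe that is read, and it ranged from -1.14 to -0.46 over the alternative settings.

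**Figure D3:**
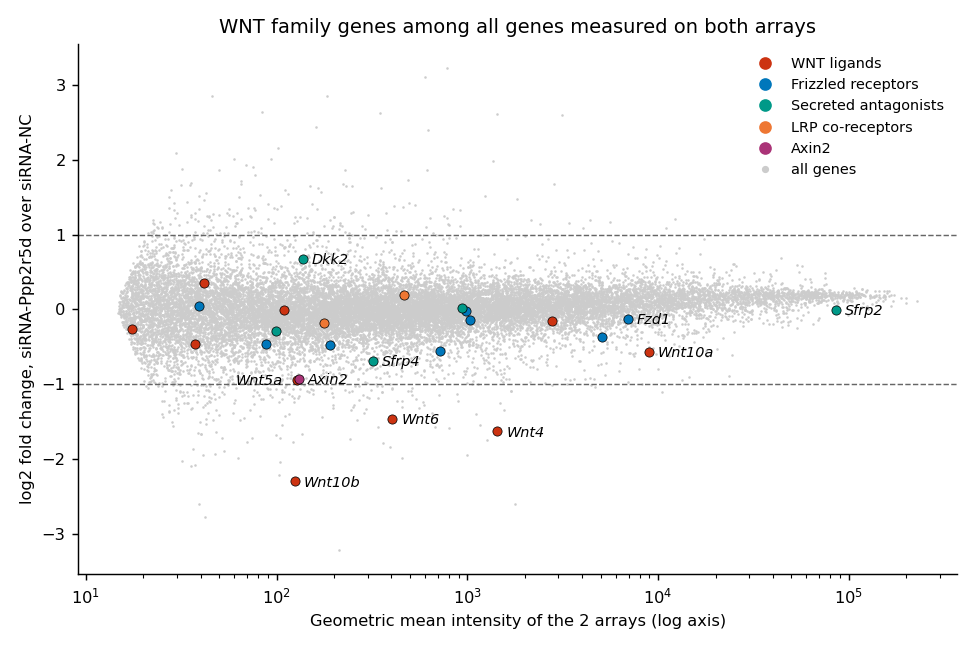
Log2 fold change of siRNA-*Ppp2r5d* over siRNA-NC against the geometric mean intensity of the 2 arrays (log axis) for all 20311 genes measured on both arrays (grey) and the 26 measured members (coloured by family); dashed lines mark 2-fold. *Wnt10b*, *Wnt4* and *Wnt6* lie below the bulk of the grey points at their signals, and the other members lie within it or at its edge.

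The rest of the pathway was read from 7 lists of non-member genes, of which 147 of 154 names were on the array and 128 were detected. Of these, 3 were at least 2-fold higher and 1 was at least 2-fold lower, beside 1.01% and 1.42% of all genes. The median over the 124 genes measured on both arrays was 0.013, close to that of all genes, 0.025.

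R-spondins, secreted proteins that raise the number of WNT receptors at the surface, held the highest of these values. *Rspo2* went from an intensity of 1705 to 4789, a value of 1.68 ± 0.20, from 1 of its 2 probes. *Rspo3* was at 0.65 and *Rspo1* at 0.52, whereas *Rspo4* was well above background on neither array. Of these R-spondins, *Rspo2* alone was past 2-fold, and *Rspo1* was under 1.5-fold. The receptors that bind R-spondins had values below 0, with *Lgr5* at -0.39 and *Lgr4* at -0.33. Of the 6 genes measured in this list, 3 were above 0 and 3 below.

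Genes that process WNT ligands were few. Of 4 measured, 3 were below 0 and the median was -0.48. *Notum*, which removes the lipid from WNT proteins and is itself used as a target gene, was lowest at -0.84 from 2 probes, with mean intensities of 541 and 265. *Porcn*, which adds the lipid, was at -0.47, *Trabd2b*, which cleaves WNT proteins, was at -0.49, and *Wls*, which carries them to the surface, was at 0.014. Among co-receptors and other secreted modulators, 1 of 17 genes detected was past 2-fold, beside 1.01% of all genes higher and 1.42% lower. This was *Gpc3*, a glypican, which went from 50.2 to 104, a value of 1.25 ± 0.22, from 1 of its 2 probes. *Ryk* (0.079), *Adgra2* (0.19) and *Tspan12* (0.26) were close to 0, and the median was 0.13.

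Inside the cell, none of the 31 genes detected in the destruction complex list or of the 20 in the list of nuclear partners was past 2-fold. With 1.42% of all genes lower and 1.01% higher, lists of this size hold few such genes or none, and the counts of 0 are near that background. *Ctnnb1*, which encodes beta-catenin, was at 0.16 from 3 probes, *Csnk1g2* at 0.29, *Csnk1e* at 0.23 and *Ppp2r5b*, another B56 subunit gene, at -0.031. The median of the 30 genes measured in the destruction complex list was 0.037. The nuclear factor *Lef1* was at 0.047, *Ctbp2* at 0.18, *Ctbp1* at -0.055 and *Tle1* at 0.17, with a median of -0.0044 over 20 genes. *Tcf7*, a partner of beta-catenin that is also used as a target, was at -0.58 and was below 0 at all 3 of its probes.

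Target genes in wide use did not share 1 direction. Of 27 measured on both arrays, 16 were below 0 and 11 above, and the median was -0.11. *Ccnd1*, which encodes cyclin D1, went from an intensity of 16370 to 6661, a value of -1.11 ± 0.20. *Id2*, an inhibitor of helix-loop-helix factors, went the other way, from a mean intensity of 577 to 1104, a value of 1.13. *Myc* was at -0.051, *Ephb3* at 0.093 and *Snai2* at 0.078. In the planar cell polarity and calcium list, none of 30 genes detected was past 2-fold, which is near the same background, with *Camk2g* at -0.11, *Rhoa* at 0.22, *Scrib* at 0.056 and a median of -0.0087.

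**Figure D4:**
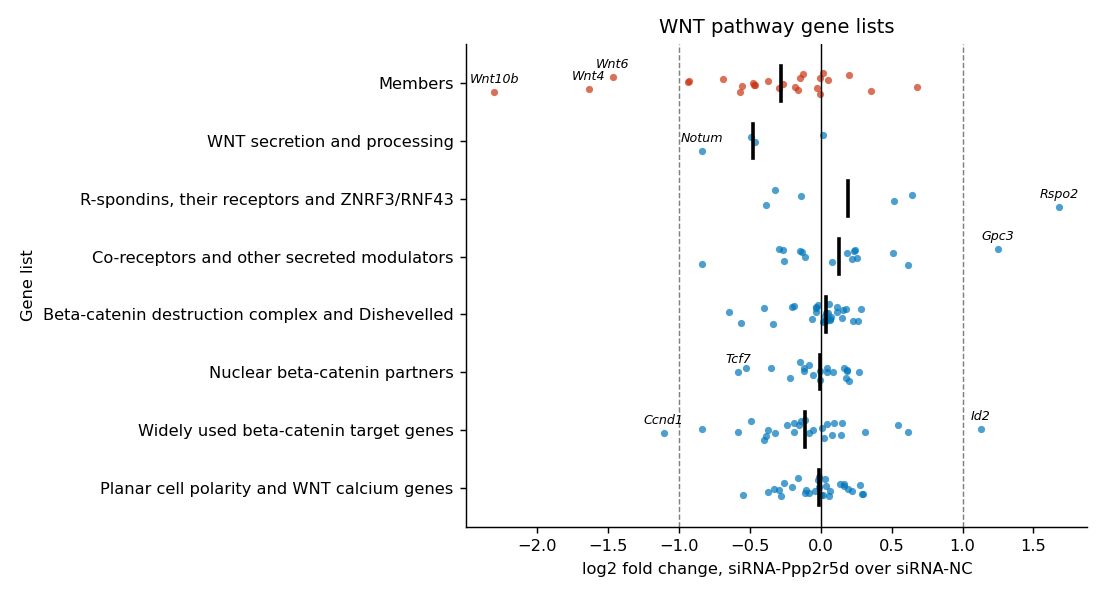
Log2 fold change of siRNA-*Ppp2r5d* over siRNA-NC for the WNT family members and for each of 7 pathway lists, 1 point per gene measured on both arrays, with a black bar at the median of the list and dashed lines at 2-fold. The members' median is -0.28, that of the R-spondin list is 0.19 and that of the target list is -0.11, and *Rspo2*, *Gpc3*, *Id2* and *Ccnd1* are the points past 2-fold outside the family.

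*Wnt10b*, *Wnt4* and *Wnt6* were at least 2-fold lower in each of the 10 alternative settings that kept the 2-fold threshold. The settings reuse the same arrays and are not independent checks, and some of them leave the single-probe values of *Wnt4* and *Wnt6* unchanged. Over the 10 settings, *Wnt4* ranged from -1.84 to -1.60, *Wnt6* from -1.68 to -1.26 and *Wnt10b* from -2.51 to -1.36. *Wnt5a* and *Axin2* passed 2-fold under 1 setting, scaling to the spike-in probes, which placed the median of all genes at -0.19.

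**Figure D5:**
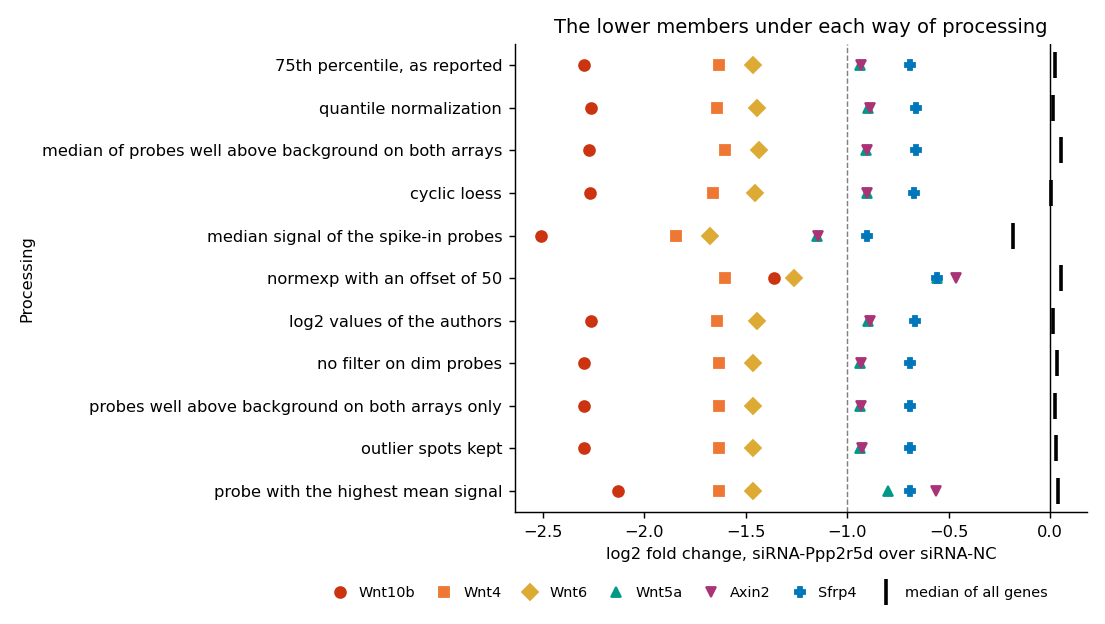
Log2 fold change of siRNA-*Ppp2r5d* over siRNA-NC for the 6 members at least 1.5-fold lower, under the reported scaling and 10 alternative settings (vertical axis), with a black bar at the median of all genes and a dashed line at 2-fold. *Wnt10b*, *Wnt4* and *Wnt6* stay left of the dashed line in each setting, and *Wnt10b* moves most, to -1.36 under normexp correction.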

How the data were processed

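RNA of MCMs was measured on 2 single-colour arrays, 1 for siRNA-NC and 1 for siRNA-*Ppp2r5d*, grouped by the treatment in their labels. The spot intensity deposited by the authors came from Feature Extraction 10.7.1.1 after correction for background, without scaling between arrays. The authors further deposited log2 values of 56605 probes, which matched a quantile normalization of the intensities with a median absolute difference of 0.000124.

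Control spots and outlier spots (226 and 188) were left out, spots of 1 probe were averaged, and log2 intensities were scaled by subtracting each array's 75th percentile, with no pseudocount. A gene's value is the mean over its probes well above background on both arrays. Where the signal was well above background on 1 array alone, a bound was taken, with the dim array at its own signal or at the lowest signal that was well above background there, whichever was higher. Over 144 probes with 10 spots each, the median SD between spots was 0.039, and over 7139 genes the median SD between probes was 0.12. The number of arrays limits the precision.

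The members and lists were chosen with earlier results of these data known, among them that *Wnt10b* was strongly lower. Members past 2-fold, members with probes of opposite sign, *Axin2*, *Lrp5* and *Lrp6* were given in full. From each pathway list, genes past 2-fold and up to 3 with the highest siRNA-NC signal were named, with *Ctnnb1*, *Lef1*, *Ccnd1* and *Myc*. *Rspo3*, *Rspo4*, *Lgr4*, *Notum* and *Tcf7* were chosen after their values were seen. All 42 member names are symbols in the RefSeq gene table, and 28 had a promoter entry. Which exon or untranslated region a probe lies in, and the planned matches to proteins, were not analysed here. The calculation of gene values was tested on simulated data, a copy of the siRNA-NC array with known 3-fold changes. Its noise had an SD of 0.1 at every signal, and detection was the same on both arrays. The test thus did not cover bounds or the larger error of dim probes. The tools were Python 3.11.15 and, for the alternative normalizations, limma 3.58.1 in R 4.3.3.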

Additional observations from a re-analysis of the deposited data

How the results depend on the processing

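No paired analysis was possible because each condition had 1 array, and no replicate could be left out. Members past 2-fold numbered 3 as reported and 5 with scaling to the spike-in probes, which added *Axin2* and *Wnt5a*. Without a filter on dim probes they numbered 5, adding *Wnt2* lower and *Wnt9b* higher, both well above background on neither array. At 1.5-fold they numbered 7, and at 4-fold 1, *Wnt10b*. Of all genes, 1.42% were at least 2-fold lower as reported, 2.85% with spike-in scaling and 2.99% without the filter. At least 2-fold higher were 219, 122 and 937 genes in the same order, of 21638, 21638 and 37000. At 1.5-fold, 5.38% of all genes were lower and 3.79% higher. At 4-fold, 21 were lower and 20 higher, of 21638. Pathway genes outside the family past 2-fold numbered 4 of 128 detected, and 7 without the filter, 11 at 1.5-fold and 0 at 4-fold. Beside the numbers over all genes, the 11 at 1.5-fold are near the background. The same holds for the 7 without the filter, of 147 names on the array. The median of the members was -0.28, and -0.22 with quantile normalization, -0.49 with spike-in scaling, -0.13 with normexp, -0.23 with the authors' log2 values and -0.084 without the filter. *Ppp2r5d* was at -2.82 with spike-in scaling and -2.49 with normexp. Of the other alternatives run, cyclic loess, the median of probes well above background on both arrays, outlier spots kept and the probe with the highest signal moved none of these counts by over 1.5 times. Background sets the limit for the 15 members not measured and for *Fzd3*, *Wnt11* and *Wnt5b*.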

Other observations

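Each of 4 cell type marker lists held 1 gene at least 2-fold higher with siRNA-*Ppp2r5d*, and none held a gene at least 2-fold lower. Detected in these lists were 15 cardiomyocyte, 9 fibroblast, 8 smooth muscle and pericyte, and 4 epithelial and mesothelial markers. In the same order, the list medians were 0.45, -0.050, 0.048 and 0.21. Of the markers measured on both arrays, 3 of 12, 5 of 9, 4 of 8 and 1 of 3 were below 0. Past 2-fold were 1.01% of all genes upward and 1.42% downward, so that counts of 0 lower are near the background. *Cnn1*, which encodes the smooth muscle protein calponin, went from a mean intensity of 288 with siRNA-NC to 1341, a log2 fold change of 2.41. *Krt8*, a keratin of simple epithelia, went from a mean intensity of 51.6 to 202, a log2 fold change of 2.16. *Csrp3*, a protein of the cardiac Z-disc, went from 37.7 to 126, a log2 fold change of 1.93. *Lum*, a matrix proteoglycan of fibroblasts, went from 156 to 288, a log2 fold change of 1.08. These values come from 1 culture per condition and have no replicate check.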
